A study of Mus musculus with 20 samples.

Results

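The livers of 5 male mice given PCB 126 on a high-fat diet (HFD) were compared with those of 5 HFD control mice, which are 10 of the 20 RNA-seq libraries of the series. Of the 21780 genes in the count table, 15522 were tested, which are those whose counts summed to 10 or more across all 20 libraries, and the genes of the study's RNA modification list are not described. All mice were male C57Bl/6J, 8 weeks old when the diet (42% of calories from fat) began. After 2 weeks each mouse received a single gavage at 10 weeks of age. HFD control mice received the corn oil vehicle, and HFD + PCB 126 mice received 20 µg/kg of PCB 126, a single dioxin-like polychlorinated biphenyl (PCB) congener. A further 5 mice received 20 mg/kg of Aroclor 1260, a commercial PCB mixture (HFD + Aroclor), and 5 received both (HFD + Aroclor + PCB 126). The diet lasted 12 weeks in all, which leaves 10 weeks after the gavage by the methods, whereas the labels give 12 weeks of treatment, and the livers were taken after a fast of about 6 hours. Each library is 1 animal, every group ate the HFD, and 1 dose of PCB 126 was used, so the comparison is of that dose on top of this diet.

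PCB 126 is a planar congener that binds the aryl hydrocarbon receptor (AhR) as dioxin does. The bound receptor enters the nucleus, pairs with ARNT and binds DNA elements with the core GCGTG, from which it turns on the cytochrome P450 genes Cyp1a1, Cyp1a2 and Cyp1b1, the repressor gene Ahrr and the ADP-ribosyltransferase gene Tiparp. In liver, Cyp1a2 is expressed by pericentral hepatocytes without any ligand, while Cyp1a1 is nearly silent until the receptor is bound.

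The control libraries held 21836506 to 36854887 counts and the PCB 126 libraries 24212471 to 33131408. Levels are given as CPM, the count scaled to a common library size. The difference in mean total count was within the spread between mice (difference 1214495, two-sided exact permutation test, p = 0.71). The slope of a library's deviations in log2 CPM per 10 percentage points of transcript GC content averaged 0.234 ± 0.131 (SD) in the controls and 0.103 ± 0.189 (SD) in the PCB 126 mice (two-sided exact permutation test, p = 0.22). The summed level of the 7 tested hepatocyte markers ranged from 89204 to 102749 CPM in the PCB 126 mice and from 95286 to 104013 CPM in the controls. Control mouse 4 stood apart. It lay at 68.7 on the first principal component of the 10 libraries (37% of the variance), against -20.1 to 10.1 for the other 9, and it held counts of adrenal genes. The 6 adrenal cortex genes examined (Cyp11a1, Cyp11b1, Cyp21a1, Hsd3b1, Star and Akr1b7) summed to 2219.9 CPM in that library and to 1930.1 CPM in mouse 4 of HFD + Aroclor + PCB 126, against at most 4.62 CPM in the other 18. For the 6 adrenal medulla genes (Chga, Chgb, Th, Dbh, Npy and Scg2) the sums were 1382 and 549 CPM, against at most 0.492 CPM. Both lists were chosen after the data were seen. Values without control mouse 4 are given for every gene past the threshold, and for the others named where they move by more than 1.5 times.

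Over all tested genes, 18 passed an adjusted p of 0.05 with PCB 126 (edgeR's quasi-likelihood test with Benjamini-Hochberg adjustment, 0.116% of the tested genes), of which 16 rose (0.103%) and 2 fell (0.0129%). The 4 genes past an adjusted p of 0.01 (0.0258%) were Cyp1a2, Slc46a3, Cdcp1 and Cyp1a1. A further 40 genes had an adjusted p from 0.05 to 0.06 (0.258%), and 2280 genes (14.7%) had an unadjusted p under 0.05, 1067 of them higher (6.87%) and 1213 lower (7.81%). The levels of the 2 groups did not overlap in 17 of the 18 genes, against 1.23% of all tested genes without overlap and higher with PCB 126 and 0.908% lower. Without control mouse 4, 10 genes passed the threshold (0.0644%), 9 higher (0.058%) and 1 lower (0.00644%), and 1907 genes (12.3%) had an unadjusted p under 0.05, 7.23% higher and 5.06% lower. Of these 10 genes, 6 were among the 18, namely Cyp1a2, Slc46a3, Cdcp1, Cyp1a1, Zfp280c and Fam20a. The other 12 then had an adjusted p of at most 0.078. The 4 genes that passed only without that mouse were Arl15, Rufy2, Dync2h1 and Fam234b, named after their values were seen, with log2 fold changes (log2FC) of 0.94, 0.84, 0.86 and 0.70 and adjusted p of 0.028, 0.029, 0.029 and 0.030. Leaving out PCB 126 mouse 3 gave 131 genes, which included all 18, and leaving out PCB 126 mouse 2 gave 4. The 4 genes past an adjusted p of 0.01 were called in all 10 fits that left out 1 mouse, Zfp280c in 8, Lonrf3 in 7, Fam20a in 6 and each of the other 11 in at most 5. Of the 18, 6 were kept without control mouse 5, 6 without PCB 126 mouse 1, 4 without PCB 126 mouse 2, 11 without PCB 126 mouse 4 and 5 without PCB 126 mouse 5. A fit to the 10 libraries of the comparison alone called 4 genes, 2 of them among the 18. DESeq2, the tool of the study's own tests, called 320 (206 higher and 114 lower), which included all 18.

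**Figure D1:**
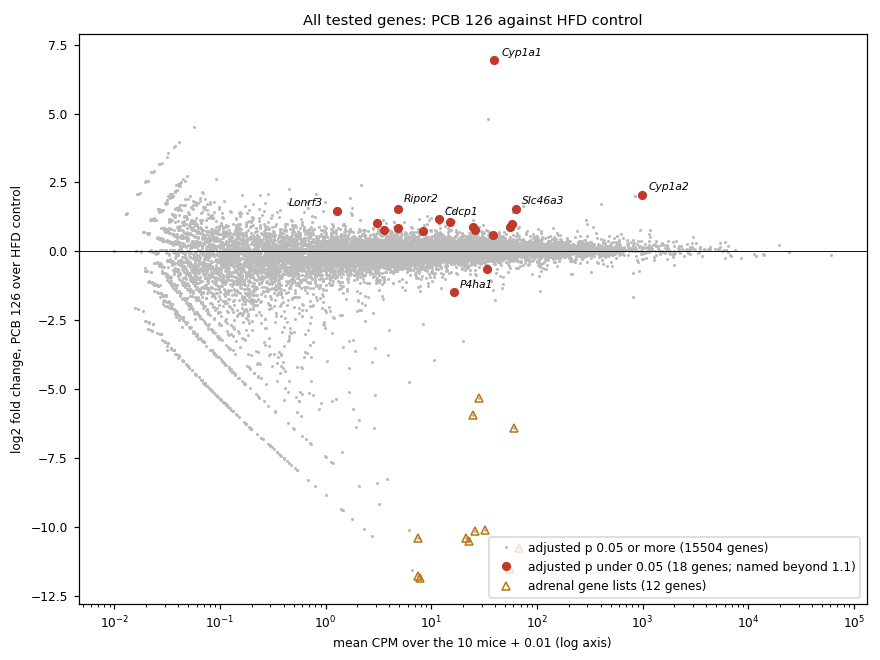
Log2 fold change of PCB 126 over HFD control (y axis) against the mean CPM over the 10 mice (x axis, log scale) for the 15522 tested genes. Filled circles are the 18 genes past an adjusted p of 0.05, led by Cyp1a1 at 6.93, and open triangles are the 12 adrenal genes, which lie far below 0 through control mouse 4.

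Of the 4 genes with the lowest adjusted p, Cyp1a2, Slc46a3 and Cyp1a1 were on the AhR target list and Cdcp1 was not. Cyp1a1, which encodes the monooxygenase used as the standard sign of receptor activation, was at 0.940, 0.799, 0.458, 0.219 and 0.645 CPM in control mice 1 to 5 and at 4.09, 7.80, 4.60, 314 and 62.1 CPM in PCB 126 mice 1 to 5. Every exposed mouse was above every control, but the exposed mice spread widely, with mouse 4 far above the rest and mouse 5 next. The rise was 6.93 ± 1.08 (SE) on the log2 scale with an adjusted p of 0.0095. Leaving out 1 mouse at a time gave 4.94 to 7.26, the lowest without PCB 126 mouse 4, and all 10 of these fits kept Cyp1a1 past the threshold, whereas the fit to the 10 libraries of the comparison alone did not. Without control mouse 4 the value was 6.74 with an adjusted p of 0.029.

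Cyp1a2, the monooxygenase that metabolises caffeine and also binds dioxin-like compounds in liver, was at 356, 437, 517, 249 and 374 CPM in control mice 1 to 5 and at 1120.0, 1127, 1495, 2601 and 1608 CPM in PCB 126 mice 1 to 5. The lowest exposed mouse was above the highest control, and the highest was again mouse 4. Cyp1a2 rose by 2.04 ± 0.24 (SE, log2), a 4.11-fold change, with an adjusted p of 0.00029. Slc46a3, a lysosomal membrane transporter, was at 35.5, 37, 39.5, 18.9 and 30.4 CPM in the controls and at 91.3, 86.4, 74.1, 122 and 95.1 CPM in the exposed mice, without overlap. Its rise was 1.54 ± 0.18 (SE, log2), 2.90-fold, with an adjusted p of 0.00029. Without control mouse 4, which had the lowest level of both genes, the log2FC was 1.92 for Cyp1a2 and 1.40 for Slc46a3, with adjusted p of 0.00076 and 0.00035. Mouse 4 was thus the highest of the exposed mice for Cyp1a1, Cyp1a2 and Slc46a3 alike.

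The AhR target list was then counted as a whole. It was chosen with earlier results of these data known and includes Cyp1a1, Cyp1a2 and Slc46a3, so its counts are a description. Of 17 AhR target genes listed and tested, 3 passed the threshold, all higher (0.103% of all tested genes were called higher), and 5 had an unadjusted p under 0.05, all higher, against 6.87% of all genes. The median log2FC of the list was 0.31, beside -0.02 for all tested genes, and 0.21 without control mouse 4. Fmo2 and Xdh, a flavin monooxygenase and xanthine dehydrogenase, had log2FC of 0.68 and 0.31 with adjusted p of 0.18 and 0.19. The following members were chosen because they are textbook targets, with their values known. Tiparp was at 5.70, 7.30, 3.66, 5.53 and 18.3 CPM in the controls and at 11.9, 14.9, 4.50, 8.88 and 9.78 CPM in the exposed mice (log2FC 0.31 ± 0.37, adjusted p = 0.74). Control mouse 5 was above all exposed mice, and without it the log2FC was 0.85, while without control mouse 4 it was 0.21. Nqo1, the quinone reductase gene, had a log2FC of 0.17 ± 0.24 and an adjusted p of 0.80 (0.0051 without control mouse 4). Ahrr was below 1 CPM in all 10 mice, with a log2FC of 0.31 ± 0.61 (0.98 without control mouse 4). Cyp1b1 was at 1.15, 0.770, 0.496, 4.39 and 0.645 CPM in the controls and at 1.37, 0.612, 0.861, 0.622 and 0.492 CPM in the exposed mice, and its log2FC of -0.88 became 0.04 without that mouse.

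None of the 7 tested genes of the AhR pathway passed the threshold. Ahr, the receptor, was at 21.7, 30.0, 37.9, 27.9 and 58.0 CPM in the controls and at 34.3, 47.4, 27.3, 30.4 and 53.6 CPM in the exposed mice, with a log2FC of 0.14 ± 0.27 (SE), an adjusted p of 0.85 and a value of 0.07 without control mouse 4, and the groups overlapped over most of their range. Arnt, its partner, was at 28.2, 29.0, 24.8, 34.9 and 39.8 CPM and 42.1, 43.2, 33.6, 38.6 and 46.9 CPM, with a log2FC of 0.39 ± 0.12 and an adjusted p of 0.15. Arnt2, a paralog expressed in neural and other tissues, was at 9.74 CPM in control mouse 4 and at most 0.0784 CPM in the other 9 mice.

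The promoters of the 4 genes with the lowest adjusted p, and of Nmrk1 as a window with 2 matches, are shown for the receptor's core motif. The windows run from 250 bases before to 50 bases after the transcription start in RefSeq (GRCm38.p6), on the strand of the gene, in lower case with GCGTG or its reverse complement CACGC in capitals.
Cyp1a1, chr9:57697363-57697662 (plus strand): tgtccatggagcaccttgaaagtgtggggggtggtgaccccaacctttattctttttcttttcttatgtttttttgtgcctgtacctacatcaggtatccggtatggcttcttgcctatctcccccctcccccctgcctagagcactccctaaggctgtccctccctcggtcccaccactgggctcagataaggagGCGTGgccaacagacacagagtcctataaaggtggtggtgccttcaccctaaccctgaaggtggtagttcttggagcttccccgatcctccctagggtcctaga
Cyp1a2, chr9:57683606-57683905 (minus strand): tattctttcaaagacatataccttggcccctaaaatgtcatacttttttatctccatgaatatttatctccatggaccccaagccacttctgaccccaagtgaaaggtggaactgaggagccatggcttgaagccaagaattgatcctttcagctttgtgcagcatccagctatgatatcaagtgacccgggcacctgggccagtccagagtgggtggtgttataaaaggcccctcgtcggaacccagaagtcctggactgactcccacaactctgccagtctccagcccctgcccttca
Slc46a3, chr5:147894766-147895065 (minus strand): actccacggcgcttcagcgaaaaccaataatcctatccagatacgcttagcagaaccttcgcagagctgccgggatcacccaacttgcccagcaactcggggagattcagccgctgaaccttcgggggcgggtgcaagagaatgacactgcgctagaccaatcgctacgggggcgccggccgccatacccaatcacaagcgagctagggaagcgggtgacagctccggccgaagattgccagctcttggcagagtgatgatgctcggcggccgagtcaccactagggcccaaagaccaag
Cdcp1, chr9:123215989-123216288 (minus strand): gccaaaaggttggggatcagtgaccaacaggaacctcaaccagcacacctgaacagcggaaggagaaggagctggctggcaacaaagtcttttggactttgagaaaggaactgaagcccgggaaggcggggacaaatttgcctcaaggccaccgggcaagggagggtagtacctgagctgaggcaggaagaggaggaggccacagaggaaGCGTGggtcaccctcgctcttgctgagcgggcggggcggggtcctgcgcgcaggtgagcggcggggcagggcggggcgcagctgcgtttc
Nmrk1, chr19:18631766-18632065 (plus strand): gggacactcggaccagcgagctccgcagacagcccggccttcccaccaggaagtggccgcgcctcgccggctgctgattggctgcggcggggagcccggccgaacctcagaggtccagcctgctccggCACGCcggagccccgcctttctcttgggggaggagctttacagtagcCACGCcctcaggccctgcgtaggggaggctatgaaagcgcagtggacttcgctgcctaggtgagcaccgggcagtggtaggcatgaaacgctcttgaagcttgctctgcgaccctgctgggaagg
The start sites of Cyp1a1 and Cyp1a2 lie 13958 bases apart on chromosome 9 and point away from each other. The Cyp1a1 window held the motif once, with its first base at position -54 from the start, whereas the windows of Cyp1a2 and Slc46a3 held none. Cdcp1 held 1, at -40, and Nmrk1 held 2, at -122 and -75. The windows of Lonrf3 and of P4ha1, a gene that fell with PCB 126, also held 2. Of the 18 genes, 16 had a window, and 10 of these held the motif in at least 1 window (62.5%), against 32.4% of all 32851 windows and 35.2% of the 27025 genes with any window. The last 2 shares are not limited to the genes tested here. Mpv17l and Eif4e3 had no window. A match in these letters is a description of the sequence, and no binding was measured.

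**Figure D2:**
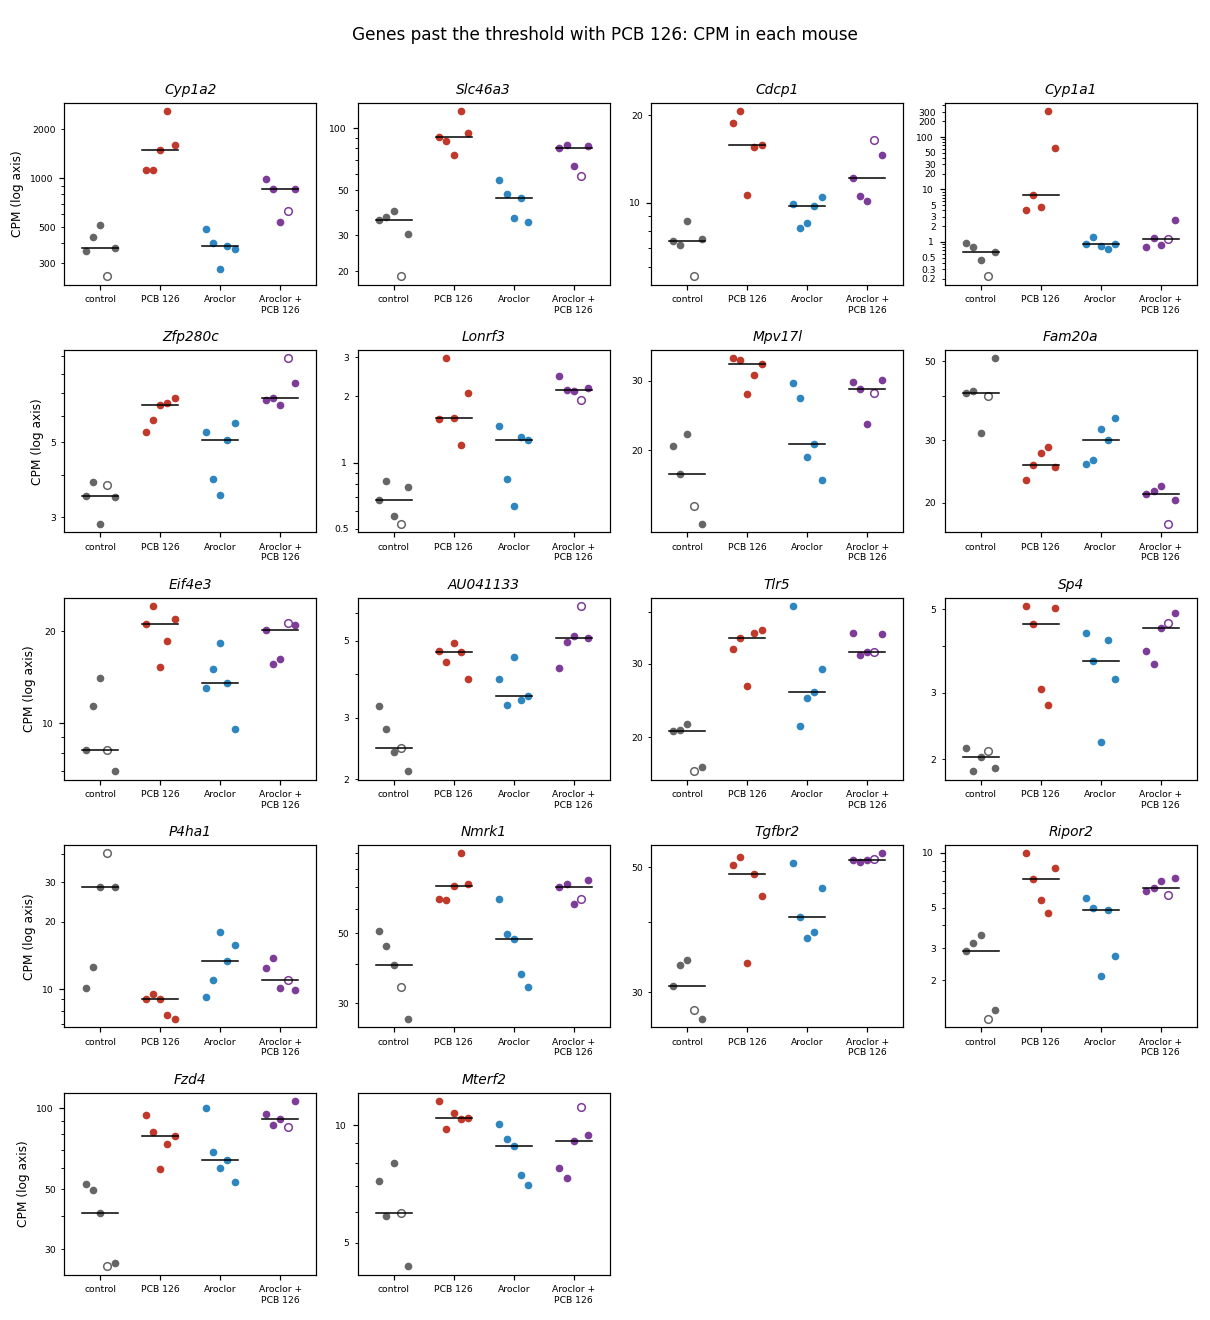
CPM (y axis, log scale, a separate scale in each panel) of the 18 genes past the threshold, in each mouse of the 4 groups. Points are mice 1 to 5 from left to right, bars are medians, and open circles are the 2 libraries with adrenal gene counts. The PCB 126 mice are clear of the controls in every panel but Tgfbr2, where mouse 3 at 33.8 CPM lies among the controls.

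Outside the AhR list, 15 genes passed the threshold, and 14 of the 18 were in none of the 39 lists examined. Cdcp1, a transmembrane substrate of Src family kinases, was at 7.39, 7.13, 8.62, 5.57 and 7.52 CPM in control mice 1 to 5 and at 18.8, 20.7, 10.7, 15.5 and 15.8 CPM in PCB 126 mice 1 to 5. The groups did not overlap, with exposed mouse 3 the closest to the controls. The rise was 1.17 ± 0.17 (SE, log2), 2.25-fold, with an adjusted p of 0.0034 (1.09 without control mouse 4), and it was past the threshold in 10 of 10 fits that left out 1 mouse. Fzd4, a Frizzled receptor for Wnt ligands and norrin, was at 52.2, 49.9, 41.0, 25.9 and 26.7 CPM in the controls and at 94.5, 81.9, 59.4, 74.0 and 79.3 CPM in the exposed mice. Control mice 4 and 5 were the lowest, and no control reached the lowest exposed mouse. Fzd4 rose by 0.99 ± 0.19 (log2, adjusted p = 0.041, and 0.87 without control mouse 4).

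Tlr5, the receptor for bacterial flagellin, was at 20.7, 20.8, 21.5, 16.5 and 16.9 CPM in the controls and at 32.4, 34.5, 26.6, 35.6 and 36.1 CPM in the exposed mice, again without overlap, and rose by 0.77 ± 0.14 (log2, adjusted p = 0.028, and 0.72 without control mouse 4). Tgfbr2, the type II receptor for TGF-β, was at 30.8, 33.6, 34.2, 27.9 and 26.9 CPM in the controls and at 50.4, 52.2, 33.8, 48.6 and 44.5 CPM in the exposed mice. Exposed mouse 3 lay within the control range, which makes Tgfbr2 the gene of the 18 whose groups overlapped. Its rise of 0.58 ± 0.11 (log2, adjusted p = 0.041, and 0.55 without control mouse 4) was the smallest of the 16. Ripor2, an inhibitor of the GTPase RhoA, was at 2.90, 3.22, 3.55, 1.23 and 1.38 CPM in the controls and at 9.93, 7.22, 5.50, 4.69 and 8.30 CPM in the exposed mice, with control mice 4 and 5 lowest, and rose by 1.52 ± 0.29 (log2, adjusted p = 0.041, and 1.36 without control mouse 4).

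Zfp280c, a zinc finger gene of the X chromosome, was at 3.47, 3.82, 2.86, 3.73 and 3.44 CPM in control mice 1 to 5 and at 5.37, 5.83, 6.46, 6.56 and 6.75 CPM in PCB 126 mice 1 to 5. Both groups were tight and clear of each other, with a rise of 0.84 ± 0.14 (SE, log2, 0.86 without control mouse 4) and an adjusted p of 0.023. It was past the threshold in 8 of 10 fits that left out 1 mouse. Sp4, a transcription factor of the Sp family, was at 2.14, 1.85, 2.02, 2.11 and 1.89 CPM in the controls and at 5.10, 4.58, 3.08, 2.78 and 5.03 CPM in the exposed mice, of which mice 3 and 4 were the closest to the controls, and rose by 1.04 ± 0.19 (log2, adjusted p = 0.030, and 1.06 without control mouse 4). Mterf2, of the mitochondrial transcription termination factor family, was at 7.21, 5.85, 8.01, 5.97 and 4.34 CPM and 11.5, 9.76, 10.7, 10.4 and 10.4 CPM and rose by 0.75 ± 0.15 (log2, adjusted p = 0.044, and 0.73 without control mouse 4). Eif4e3, a cap-binding protein of the eIF4E family, was at 8.18, 11.4, 14, 8.16 and 6.97 CPM and 21.1, 24.2, 15.2, 18.6 and 21.9 CPM and rose by 1.05 ± 0.19 (log2, adjusted p = 0.026, and 0.99 without control mouse 4), with control mouse 3 close to exposed mouse 3. The exons of Mterf2 overlap those of Tmem263 and the exons of Eif4e3 those of Gm20696, the former on the opposite and the latter on the same strand, so both values are uncertain.

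Nmrk1, a nicotinamide riboside kinase that feeds NAD synthesis, was at 50.8, 45.7, 39.6, 33.8 and 26.7 CPM in the controls and at 64.3, 63.8, 71.0, 89.7 and 72.0 CPM in the exposed mice, and rose by 0.87 ± 0.17 (log2, adjusted p = 0.041, and 0.82 without control mouse 4). Mouse 4 was once more the highest. Mpv17l, an organelle membrane protein related to Mpv17, was at 20.5, 17.4, 22, 14.4 and 13 CPM and 34.2, 34.0, 27.9, 31.0 and 33.1 CPM and rose by 0.87 ± 0.15 (log2, adjusted p = 0.026, and 0.81 without control mouse 4). Lonrf3, a RING finger protein with a LON domain, was low, at 0.679, 0.827, 0.572, 0.526 and 0.774 CPM in the controls and 1.58, 2.96, 1.59, 1.20 and 2.08 CPM in the exposed mice, and rose by 1.47 ± 0.26 (log2, adjusted p = 0.026, and 1.40 without control mouse 4). AU041133 was at 3.24, 2.80, 2.40, 2.46 and 2.11 CPM and 4.68, 4.35, 4.93, 4.65 and 3.87 CPM, with a rise of 0.78 ± 0.14 (log2, adjusted p = 0.026, and 0.76 without control mouse 4).

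The 2 genes that fell differed in how even the fall was. Fam20a, the pseudokinase that activates the secretory pathway kinase Fam20c, was at 40.6, 41.3, 31.5, 39.8 and 50.9 CPM in control mice 1 to 5 and at 23.2, 25.6, 27.6, 28.6 and 25.2 CPM in PCB 126 mice 1 to 5. The exposed mice lay in a narrow band below all controls, and the log2FC was -0.65 ± 0.11 (SE, adjusted p = 0.026, and -0.66 without control mouse 4). P4ha1, a catalytic subunit of collagen prolyl 4-hydroxylase, was at 10.2, 12.5, 28.6, 40.4 and 28.5 CPM in the controls and at 9.06, 9.54, 9.07, 7.63 and 7.35 CPM in the exposed mice. Control mice 1 and 2 were close to the exposed mice, while control mice 3, 4 and 5 were far above them. The log2FC was -1.49 ± 0.28 (SE, adjusted p = 0.034) and -1.22 without control mouse 4, where the adjusted p was 0.074. P4ha1 was the only one of the 16 tested fibrosis and matrix genes past the threshold, and 15 of the 16 had a log2FC below 0, with a median of -0.33 and 2 lower at an unadjusted p under 0.05 (7.81% of all tested genes were), 3 without control mouse 4 (5.06%).

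Heat shock genes separated the controls in the same way as P4ha1. None of the 12 tested heat shock and chaperone genes passed the threshold, 7 were lower and 0 higher at an unadjusted p under 0.05 (7.81% of all tested genes were lower and 6.87% higher), and their median log2FC was -0.72. Without control mouse 4 the count was 6 (5.06% of all tested genes were lower) and the median -0.51. Bag3, a co-chaperone of Hsp70, was at 29.8, 29.9, 80.9, 112 and 83.0 CPM in control mice 1 to 5 and at 23.0, 29.0, 24.9, 26.3 and 28.2 CPM in PCB 126 mice 1 to 5 (log2FC -1.35 ± 0.28, adjusted p = 0.051). Controls 1 and 2 were at the level of the exposed mice and controls 3, 4 and 5 were above it. Dnajb1, the Hsp40 co-chaperone, was at 19.7, 20.3, 49.5, 135 and 83.8 CPM and 15.3, 23.5, 19.5, 17.2 and 15 CPM (log2FC -1.76 ± 0.39, adjusted p = 0.055). Hspa1b, an inducible Hsp70 gene with a near-identical copy in Hspa1a, which makes its counts uncertain, was at 1.88, 3.22, 31.8, 104 and 41.4 CPM and 1.85, 11.2, 2.19, 2.24 and 1.62 CPM (log2FC -3.24 ± 0.92, adjusted p = 0.13). In both genes control mouse 4 was highest and controls 1 and 2 lay within or near the exposed range. The HFD + Aroclor mice 3, 4 and 5 were also above mice 1 and 2 of their group for Bag3, at 27.1, 28.6, 52.8, 33.5 and 37.1 CPM. The labels do not tell mice 1 and 2 from mice 3 to 5, and what set them apart was not tested.

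**Figure D3:**
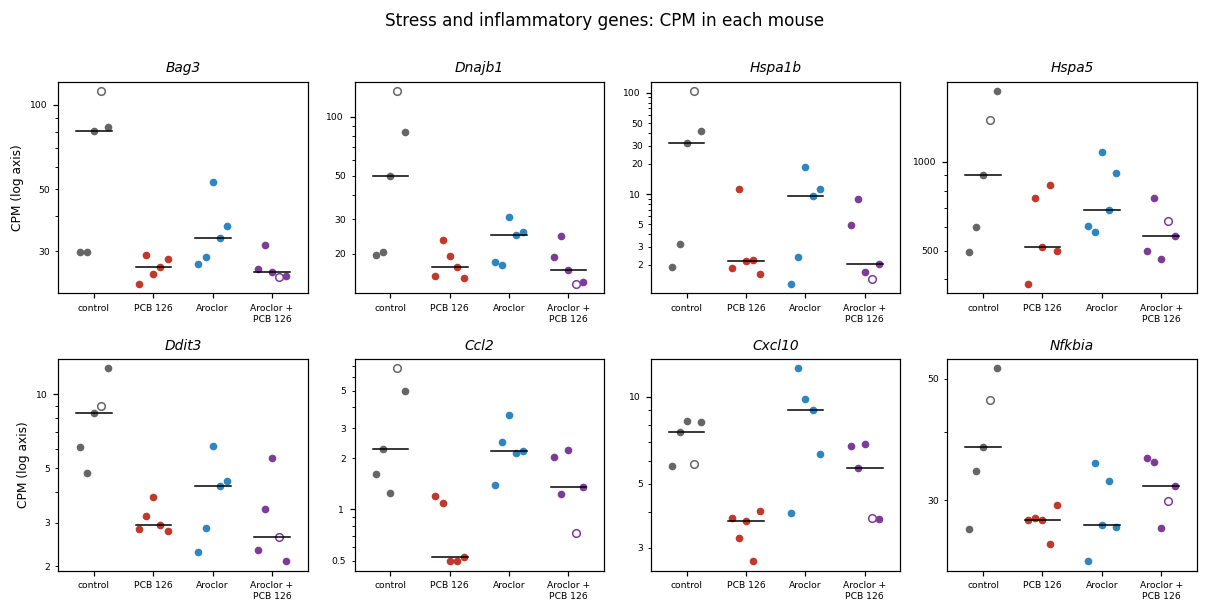
CPM (y axis, log scale, a separate scale in each panel) of 8 stress and inflammatory genes in each mouse of the 4 groups. Points are mice 1 to 5 from left to right, bars are medians, and open circles are the 2 libraries with adrenal gene counts. For Bag3, Dnajb1 and Hspa1b, control mice 1 and 2 lie near the PCB 126 mice and control mice 3 to 5 above them.

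Genes of the unfolded protein and integrated stress response were counted next. All 16 tested members had a log2FC below 0 (median -0.21), none passed the threshold, and 4 had an unadjusted p under 0.05, with or without control mouse 4 (7.81% and 5.06% of all tested genes were lower). The median log2FC of all tested genes was -0.02. Here and in the other lists, a count of members below or above 0 is a description with no test. Ddit3, which encodes the transcription factor CHOP, was at 6.09, 4.79, 8.39, 8.95 and 12.7 CPM in the controls and at 2.83, 3.19, 3.84, 2.95 and 2.78 CPM in the exposed mice, without overlap (log2FC -1.39 ± 0.29, adjusted p = 0.051), and its exons overlap those of Mars on the other strand. Hspa5, the ER chaperone BiP, was at 493, 602, 905, 1386 and 1739.9 CPM and 386, 755, 513, 833 and 499 CPM (log2FC -0.78 ± 0.29, adjusted p = 0.23), with overlap between controls 1 and 2 and the exposed mice. Of the NRF2 target genes, 13 of 17 were below 0, with a median of -0.31, none past the threshold and 3 lower at an unadjusted p under 0.05 (7.81% of all tested genes), 4 without control mouse 4. Hmox1, heme oxygenase 1, was at 15.7, 22.9, 20.1, 28.3 and 25.1 CPM in the controls and at 16, 14.6, 12.2, 9.13 and 10.9 CPM in the exposed mice (log2FC -0.84 ± 0.19, adjusted p = 0.065), where only control mouse 1 lay within the exposed range.

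Of the 16 tested cytokine and chemokine genes none passed the threshold, 14 had a log2FC below 0, 4 had an unadjusted p under 0.05, all lower (7.81% of all tested genes), 3 without control mouse 4 (5.06%), and the median was -0.30 with control mouse 4 and -0.41 without it. Ccl2, the monocyte chemoattractant, was at 1.62, 2.25, 1.26, 6.75 and 4.99 CPM in the controls and at 1.19, 1.1, 0.497, 0.498 and 0.528 CPM in the exposed mice, without overlap, with controls 4 and 5 highest (log2FC -2.11 ± 0.44, adjusted p = 0.051). Cxcl10, a chemokine of the interferon response, was at 5.77, 7.53, 8.24, 5.88 and 8.17 CPM and 3.82, 3.25, 3.71, 2.70 and 4.01 CPM, again without overlap (log2FC -1.02 ± 0.25, adjusted p = 0.074). Its exons overlap those of Art3 on the other strand. Nfkbia, the NF-κB inhibitor, had a log2FC of -0.51 ± 0.15 and an adjusted p of 0.14. Of the 12 tested Kupffer cell and macrophage markers, all had a log2FC below 0 and none an unadjusted p under 0.05. With control mouse 4 left out, 2 had such a p (5.06% of all tested genes were lower), Marco, a scavenger receptor, at a log2FC of -1.05 and C1qa, a complement subunit, at -0.52. The summed level of the list ranged from 359.7 (from 399.7 without control mouse 4) to 751 CPM in the controls and from 217 to 589 CPM in the exposed mice. The part of these cells in the chemokine values was not tested.

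None of the 11 tested liver endothelial markers passed the threshold, all 11 had a log2FC below 0, and 3 had an unadjusted p under 0.05 (7.81% of all tested genes were lower), a number that was 7 without control mouse 4 (5.06%). The markers Vwf, Pecam1 and Clec4g, a clotting factor carrier, an adhesion molecule and a lectin of sinusoidal cells, had log2FC of -0.75, -0.51 and -0.48, and -0.92, -0.58 and -0.65 without that mouse. The summed level of the list was 162 to 357 CPM in the controls, 241 at the lowest without control mouse 4, and 151 to 289 CPM in the exposed mice. In bulk tissue, fewer cells of a type and less RNA per cell cannot be told apart. Hnf4a, the hepatocyte transcription factor, had a log2FC of -0.54 ± 0.18 (adjusted p = 0.19), at 413, 490.4, 537, 691 and 886 CPM in the controls and 365, 410.0, 422, 397 and 477 CPM in the exposed mice, with controls 4 and 5 high. Des, the stellate cell intermediate filament gene, had a log2FC of -1.15 ± 0.35 (adjusted p = 0.15), and the other 9 stellate markers did not reach an unadjusted p of 0.05. The summed stellate markers were 258 to 450.4 CPM in the controls and 304 to 483 CPM in the exposed mice.

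Acute phase genes were high in some mice of both groups. Of 16 tested, 13 had a log2FC above 0 (median 0.36), none passed the threshold and 1 was higher at an unadjusted p under 0.05 (6.87% of all tested genes), 0 without control mouse 4. Saa1, serum amyloid A1, whose near-identical paralog Saa2 makes its counts uncertain, was at 163, 222, 151, 132 and 1011 CPM in the controls and at 4607, 1641, 109.7, 368 and 106 CPM in the exposed mice. Exposed mice 1 and 2 and control mouse 5 were high and the others low. Lcn2, lipocalin 2, followed the same mice, at 26.1, 36.9, 28.3, 10.5 and 57.9 CPM and 219, 149, 13.3, 33.9 and 16.6 CPM, with an adjusted p of 0.43.

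No list of metabolic genes other than the pericentral one held a gene past the threshold. The 18 tested methionine and one-carbon genes had a median log2FC of 0.22 (0.21 without control mouse 4), with none past the threshold, 7 higher and 1 lower at an unadjusted p under 0.05 (6.87% and 7.81% of all tested genes). These numbers were 5 and 1 without control mouse 4 (7.23% and 5.06%). Bhmt, which remethylates homocysteine with betaine, was at 2682, 2325, 3281, 2277 and 1966 CPM in the controls and at 3053, 3372, 4193, 3431 and 3772 CPM in the exposed mice (log2FC 0.51 ± 0.15, adjusted p = 0.14). Only control mouse 3 lay within the exposed range. Its paralog Bhmt2 had a log2FC of 0.36 ± 0.09 (adjusted p = 0.092), and Ahcy, which splits S-adenosylhomocysteine, one of 0.37 ± 0.10 (adjusted p = 0.12). The 20 phase II conjugation enzymes had a median of 0.19 and 3 members higher at an unadjusted p under 0.05 (6.87% of all tested genes). Without control mouse 4 the median was 0.13 and the number 4 (7.23%). Nat2, an arylamine acetyltransferase, was at 17.8, 17.3, 17.4, 14.3 and 13.6 CPM and 25.9, 22.9, 21.6, 19.9 and 22.1 CPM, without overlap (log2FC 0.48 ± 0.12, adjusted p = 0.084). Ugt1a9 had a log2FC of 1.46 ± 0.36 (adjusted p = 0.084) but shares exons with 8 other Ugt1a genes, so its counts are uncertain. Among 18 targets of the receptors CAR and PXR, none passed the threshold and 3 were higher at an unadjusted p under 0.05 with or without control mouse 4, among them Cyp3a13 at 0.54 ± 0.18 and Por, the electron donor of the cytochrome P450 enzymes, at 0.56 ± 0.19 (log2FC, adjusted p of 0.19 and 0.19).

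Cyp7a1, the rate-limiting enzyme of bile acid synthesis, was at 139.7, 105, 337, 249 and 97.9 CPM in the controls and at 443, 540.1, 348, 199 and 486 CPM in the exposed mice (log2FC 1.12 ± 0.32, adjusted p = 0.14). Exposed mouse 4 lay below control mice 3 and 4. Akr1d1, the steroid 5β-reductase of the same pathway, had a log2FC of 0.84 ± 0.26 (adjusted p = 0.16), and 3 of the 14 bile acid genes were higher and 0 lower at an unadjusted p under 0.05, 3 and 1 without control mouse 4. For this and the next lists, the shares of all tested genes at that p were 6.87% higher and 7.81% lower. Without control mouse 4 these shares were 7.23% and 5.06%. Msmo1, a sterol C4-methyl oxidase, was at 27.3, 25.1, 27.2, 21.8 and 16.2 CPM and 49.5, 40.5, 34.3, 29.5 and 36.5 CPM, without overlap (log2FC 0.69 ± 0.15, adjusted p = 0.055), while the 21 cholesterol synthesis genes had a median of 0.10, with 3 higher and 2 lower at an unadjusted p under 0.05 and 1 and 1 without control mouse 4. Ppargc1a, the coactivator of gluconeogenic and mitochondrial genes, had a log2FC of 0.63 ± 0.14 (adjusted p = 0.055), and G6pc, glucose-6-phosphatase, one of 0.78 ± 0.31 (adjusted p = 0.27), in a list of 20 with a median of -0.0056 (-0.09 without control mouse 4), where 4 were higher and 1 lower at an unadjusted p under 0.05 and 2 and 1 without that mouse. Nampt, which recycles nicotinamide into NAD, had a log2FC of 0.50 ± 0.14 (adjusted p = 0.13), in a list of 14 with 3 higher at an unadjusted p under 0.05, 2 without control mouse 4. In the lists of de novo lipogenesis, fatty acid oxidation with PPARα, and lipid uptake and droplets (20, 22 and 25 tested genes), no gene passed the threshold and the medians were -0.02, 0.05 and -0.04. The lowest unadjusted p of the last list belonged to Fabp4, the adipocyte fatty acid carrier, whose log2FC of -1.39 was -0.37 without control mouse 4 (168 CPM there).

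Of 15 pericentral zonation genes, Cyp1a2 alone passed the threshold and 4 were higher at an unadjusted p under 0.05 (6.87% of all tested genes), among them Slc1a2, a glutamate transporter of the innermost pericentral hepatocytes, at 287, 294, 364, 248 and 358 CPM in the controls and 389.9, 404, 472, 421 and 507 CPM in the exposed mice (log2FC 0.50 ± 0.11, adjusted p = 0.055). Tbx3, a pericentral transcription factor, had a log2FC of 0.51 ± 0.18 (adjusted p = 0.22). The pericentral number, which includes Cyp1a2, was also 4 without control mouse 4 (7.23% of all tested genes were higher). Of 15 periportal genes, 4 were also higher at an unadjusted p under 0.05, 3 without control mouse 4, and none passed the threshold. Arg1, the last enzyme of the urea cycle, had a log2FC of 0.39 ± 0.11 (adjusted p = 0.14). The median was 0.15 for the pericentral and 0.07 for the periportal list, and 0.07 and 0.20 without control mouse 4, so the order of the lists turned on that mouse.

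Of 18 tested clock genes, none passed the threshold, 4 were higher and 3 lower at an unadjusted p under 0.05 (6.87% and 7.81% of all tested genes), 4 and 4 without control mouse 4. Nr1d1, the repressor REV-ERBα, was at 70.3, 62.2, 66.1, 61.0 and 71.3 CPM in the controls and at 23.5, 16, 40.1, 34.4 and 32.1 CPM in the exposed mice. The controls were tight and the highest exposed mouse was well below the lowest control (log2FC -1.18 ± 0.25, adjusted p = 0.052, and -1.21 without control mouse 4). Its exons overlap those of Thra on the other strand. Npas2, a partner of BMAL1, was low, at 0.627, 0.428, 0.343, 1.05 and 0.774 CPM and 0.268, 0.129, 0.0331, 0.124 and 0.141 CPM (log2FC -2.16 ± 0.54, adjusted p = 0.085). The time of day at which each liver was taken is not given in the sources used here.

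**Figure D4:**
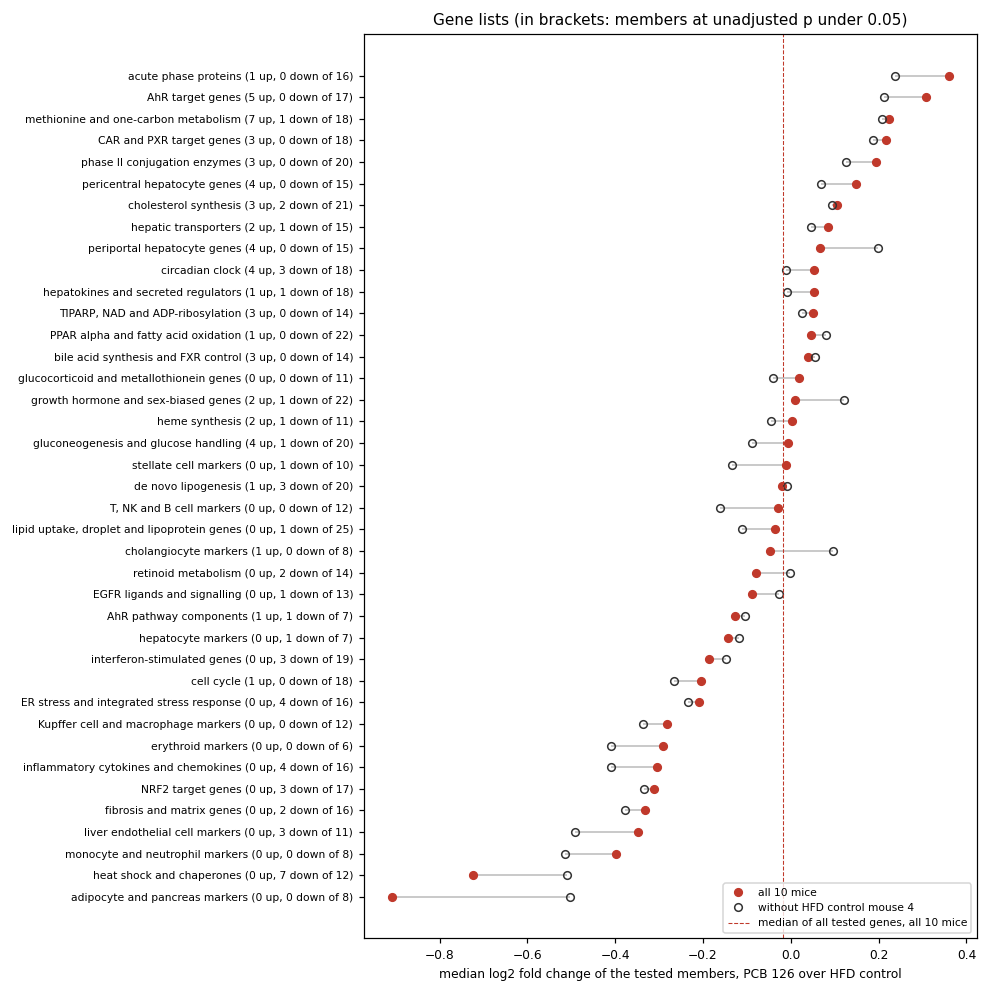
Median log2 fold change of PCB 126 over HFD control (x axis) for the tested members of each of 39 gene lists (y axis), with the number of members higher and lower at an unadjusted p under 0.05 in brackets. Filled circles use all 10 mice and open circles leave out control mouse 4. The heat shock list lies at -0.72 and -0.51, and the adipocyte and pancreas list moves most, from -0.91 to -0.50.

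The remaining lists held no gene past the threshold, and over all tested genes 6.87% were higher and 7.81% lower at an unadjusted p under 0.05 (7.23% and 5.06% without control mouse 4). At that p, hepatic transporters had 2 members higher and 1 lower of 15, which became 0 and 1 without control mouse 4. Growth hormone and sex-biased genes had 2 and 1 of 22, which became 0 and 1, and heme synthesis genes 2 and 1 of 11, which became 1 and 1. Hepatokines had 1 and 1 of 18 and retinoid genes 0 and 2 of 14, and these counts were the same without that mouse. Among the retinoid genes, Ttr then took the place of Aldh1a2. EGFR ligands and signalling genes had 1 lower of 13, interferon-stimulated genes 3 lower of 19 and cholangiocyte markers 1 higher of 8, and each of these 3 lists had none without that mouse. Cell cycle genes had 1 higher of 18, and 1 higher and 3 lower without it. Aldh1a2, a retinaldehyde dehydrogenase, had a log2FC of -2.13 that was 0.00347 without that mouse. Glucocorticoid and metallothionein genes, monocyte and neutrophil markers, T, NK and B cell markers, erythroid markers and adipocyte and pancreas markers (11, 8, 12, 6 and 8 tested) had none, while without control mouse 4 the glucocorticoid, monocyte and erythroid lists had 1 lower each. Krt19, the cholangiocyte keratin, had a log2FC of -0.76 ± 0.55, and S100a8, a neutrophil calcium-binding protein, one of -0.79 ± 0.44.

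The 10 largest changes that missed the threshold without overlap between groups included 3 that moved by more than 1.5 times without control mouse 4. Hao2, a hydroxyacid oxidase, was at 0.549, 0.97, 0.153, 18.4 and 0.129 CPM in the controls and at 0.119, 0.0644, 0.0662, 0 and 0 CPM in the exposed mice, and its log2FC of -6.11 was -3.05 without that mouse, where the groups still did not overlap. Chst11, a chondroitin sulfotransferase, and Slc7a1, a cationic amino acid transporter, were at 8.47 and 5.57 CPM in control mouse 4 and at most 0.559 and 1.17 CPM in the other controls. Their log2FC of -2.98 and -1.32 became -0.81 and -0.48. The other 7 stayed beyond 1 in size, the smallest being Bag3 at -1.08. Besides Ccl2, Ddit3, Bag3 and Nr1d1, these were Cyp2d12, Pcp4l1 and Spon2. Cyp2d12, a cytochrome P450 of the 2D family, was at 1.20, 1.06, 1.18, 0.482 and 0.774 CPM in the controls and at 1.58, 1.29, 2.88, 3.69 and 3.06 CPM in the exposed mice (log2FC 1.39 ± 0.30, adjusted p = 0.055), with mouse 4 highest. Pcp4l1, a calmodulin-binding IQ motif protein, was at 6.87, 4.28, 5.34, 6.18 and 4.04 CPM and 11, 12.3, 11.3, 23.6 and 6.97 CPM (log2FC 1.28 ± 0.26, adjusted p = 0.051), also with mouse 4 highest. Spon2, a secreted matrix protein of the spondin family, was at 12.2, 8.33, 9.53, 11.4 and 13 CPM and 4.47, 3.87, 6.03, 4.73 and 3.90 CPM, with every exposed mouse below every control (log2FC -1.24 ± 0.27, adjusted p = 0.055). Sult1e1, the estrogen sulfotransferase, was chosen after its values were seen because exposed mouse 4 stood out again, at 14.4, 18.1, 1.46, 298 and 3.45 CPM in the exposed mice and 2.06, 1.31, 4.92, 1.01 and 2.62 CPM in the controls (log2FC 4.81 ± 1.16, adjusted p = 0.074), and the log2FC was 1.98 without that mouse.

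The change with PCB 126 could be read a second time in mice that also received Aroclor, since HFD + Aroclor + PCB 126 against HFD + Aroclor uses 10 other mice. In that comparison 64 genes passed the threshold (0.412%), 16 higher (0.103%) and 48 lower (0.309%), and the mean GC slope of the libraries, a measure of how levels follow transcript GC content, was -0.34 per 10 percentage points with PCB 126 and -0.00074 without it. All 18 genes had the same direction there as with PCB 126 alone, against 60.4% of all tested genes, 12 had an unadjusted p under 0.05 in that direction (23.4% of all genes had such a p, 9.74% higher and 13.7% lower), and 2, Zfp280c and Fam20a, passed the threshold, both with an adjusted p of 0.049. With both libraries that held adrenal gene counts left out, the direction was shared by 17 of the 18 and no gene passed the threshold in the Aroclor mice. Cyp1a2 was at 492, 400.2, 279, 385 and 367 CPM with Aroclor and at 992, 856, 537, 632 and 858 CPM with both, without overlap, a log2FC of 1.01 ± 0.23 (unadjusted p from edgeR's test = 0.00027, adjusted p = 0.054). Slc46a3 was at 56.3, 47.9, 36.5, 45.5 and 34.7 CPM and 80.1, 83.0, 65.7, 58.4 and 82.2 CPM, again without overlap, with a log2FC of 0.74 ± 0.18 and an adjusted p of 0.058. Cyp1a1 was at 0.898, 1.23, 0.838, 0.737 and 0.922 CPM with Aroclor and 0.792, 1.19, 0.875, 1.13 and 2.62 CPM with both, where only mouse 5 was above all the Aroclor mice, and the log2FC was 0.53 ± 1.03. None of these mice reached the lowest Cyp1a1 level of the 5 mice given PCB 126 alone.

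**Figure D5:**
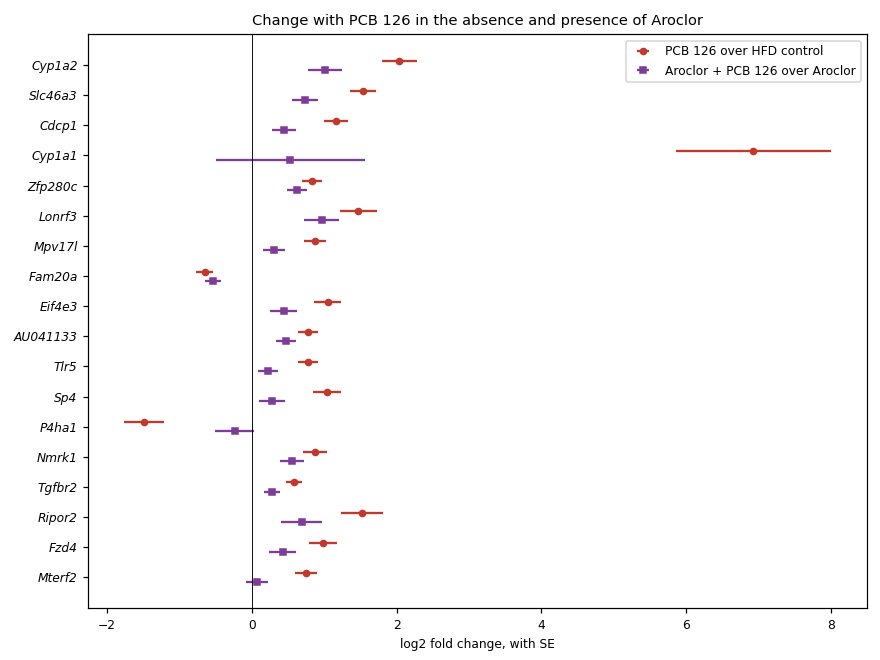
Log2 fold change (x axis, bars are SE) of the 18 genes past the threshold with PCB 126 (y axis), for PCB 126 over HFD control (circles) and for HFD + Aroclor + PCB 126 over HFD + Aroclor (squares). All squares lie on the side of 0 of their circle and closer to 0, and Cyp1a1 goes from 6.93 to 0.53.

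The difference between the 2 changes was tested as an interaction. No gene of the 15522, and none of the 18, passed an adjusted p of 0.05 in edgeR's test (smallest adjusted p among the 18, 0.28), while 1846 genes (11.9%) had an unadjusted p under 0.05 and DESeq2 called 1 of the 18 genes. The interaction was -6.40 ± 1.45 for Cyp1a1 (log2, adjusted p = 0.28), -1.03 ± 0.32 for Cyp1a2 (adjusted p = 0.29) and -0.80 ± 0.25 for Slc46a3 (adjusted p = 0.29). In all 18 genes the change was smaller in size in the Aroclor mice. The genes were chosen for their change in the mice without Aroclor, so that count is a description. For HFD + Aroclor over HFD control, 17 of the 18 had a log2FC in the direction of their call, with Cyp1a2 (-0.0075) the exception. For Slc46a3 it was 0.45 ± 0.18 (adjusted p = 0.23). HFD + Aroclor and HFD + PCB 126 are here set against the same control mice. The share of all tested genes with such a shared direction was not computed, and its cause was not tested. The shares for HFD + Aroclor + PCB 126 over HFD + Aroclor were computed over all tested genes. Of the genes higher with PCB 126 alone, 63.6% were higher there too, and of the lower ones 57.6% were lower.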

How the data were processed

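Liver polyA RNA of 20 mice was made into strand-specific TruSeq libraries and sequenced in 2 runs. The authors checked reads with FastQC 0.10.1, aligned them with STAR 2.6 to GRCm38.p6 and counted reads per Ensembl gene with HTSeq 0.10.0, and the deposited values are raw counts with no normalization. The study's own tests used DESeq2 after a filter of 1 FPKM, neither of which is part of the main fit here. The strand setting of the counting and the annotation release are not given in the sources used here.

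Groups and replicate numbers follow the sample titles, and for PCB 126 mouse 2 the bracketed name in the title carries the number 3. Counts were fitted with edgeR 4.0.16 (R 4.3.3) using TMM scaling, the quasi-likelihood test and 1 coefficient per group over all 20 libraries (16 residual degrees of freedom), with p-values adjusted by Benjamini-Hochberg over 15522 genes. A ± value after a log2 fold change is its standard error (SE), taken as the size of the change over the square root of the test's F statistic. Some log2 fold changes are given without it. A gene passed the threshold at an adjusted p under 0.05. CPM values are scaled by TMM and are not divided by gene length. All within-group library pairs differed by far more than counting noise (chi-square over its degrees of freedom at least 32.1 in the 20 pairs), so each library counted as 1 mouse. The fit was tested on simulated data.

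The comparison, the members and the 39 gene lists were chosen with earlier results of these data known. Genes named are those past the threshold, Cyp1a1 and Cyp1a2, the 10 largest changes that missed it (unadjusted p under 0.05, mean of at least 1 CPM, no overlap between groups) and up to 3 genes per list with the smallest p. The others were named after their values were seen, namely Tiparp, Ahrr, Nqo1, Cyp1b1, Fmo2, Xdh, Ahr, Sult1e1, Arl15, Rufy2, Dync2h1, Fam234b and the adrenal genes. Alternatives were other scalings, filters and tests (DESeq2 1.42.0), the replicate number as a block, GC corrections and leaving out single mice.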

Additional observations from a re-analysis of the deposited data

Results flagged for a closer look

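Single mice stood apart from the other 4 of their group (gap to the nearest mouse over the group's range above Dixon's 95% limit) in 16 of 156 groups examined, the control and PCB 126 mice of 78 named genes. Chance alone gives about 1 in 20 groups, but some of these genes were named because 1 mouse stood out, so the number of such values is not a test. Among the PCB 126 mice, Cyp1a1 was at 314 CPM and Sult1e1 at 298 CPM in mouse 4, while in mouse 1 Nqo1 was at 20.5 CPM, Ahcy at 549 CPM and Orm2, an acute phase glycoprotein, at 402 CPM. Hspa1b was at 11.2 CPM in mouse 2, Chst11 at 0.0993 CPM in mouse 3 and Arnt2 at 0.0352 CPM in mouse 5. Among the controls, mouse 4, which held adrenal gene counts, had Arnt2 at 9.74 CPM, Cyp1b1 at 4.39 CPM, Hao2 at 18.4 CPM, Chst11 at 8.47 CPM, Slc7a1 at 5.57 CPM and Fabp4 at 168 CPM. Control mouse 5 had Tiparp at 18.3 CPM and Saa1 at 1011 CPM.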

How the results depend on the processing

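The count of 18 genes with PCB 126 was 9 with upper-quartile scaling, 320 with DESeq2, 68 with filterByExpr, 47 with a filter of 1 FPKM, 64 with a filter of 1 CPM, 4 in a fit to these 10 libraries alone, 46 with a GC correction, 676 with the GC slope as a covariate (163 higher and 513 lower, against 16 and 2), 4 at an adjusted p of 0.01, and 11 with both libraries holding adrenal gene counts left out, an alternative chosen after seeing the data. Leaving out 1 mouse gave 4 (without PCB 126 mouse 2) to 131 (without PCB 126 mouse 3). The count of 64 in the Aroclor mice was 107 with RLE size factors, 251 with upper-quartile scaling, 1343 with DESeq2, 13 with no filter, 292 with filterByExpr, 636 and 465 with the filters of 1 FPKM and 1 CPM, 3 with the GC correction, and 0 in a fit to those 10 libraries alone, with the GC slope as a covariate, at an adjusted p of 0.01 and with both adrenal libraries left out, and 0 to 1011 without 1 mouse. The interaction count of 0 was 1 with DESeq2. Where no construction shows it, the cause of these shifts was not tested.

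Deviations from the group means of same-numbered mice correlated at 0.085, -0.24, -0.049, -0.041 and 0.23 between control and PCB 126 mice, and at -0.061, -0.12, 0.36, -0.0066 and 0.0031 between the Aroclor groups, so not every pair exceeded 0.1 in either comparison and the mice were taken to share only a number. With the replicate block, 101 genes were called with PCB 126 and 475 in the Aroclor mice, and 144 and 37 when the block was joined to the GC correction.

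Over 411 values of the 18 genes under the alternatives, none reversed and 116 missed the threshold. Reversals occurred in 5 of the 60 other named genes. Tiparp was -0.13 and Ahr -0.12 with the GC slope as a covariate, and Cyp1b1 was 0.040 with both adrenal libraries left out. Without 1 mouse, Ahrr ranged from -0.0085 to 0.98, Nqo1 from -0.072 to 0.43, Cyp1b1 from -1.18 to 0.039 and Ahr from -0.0091 to 0.39. The p-value of a gene in the main fit sets its change against the spread between mice within the groups, estimated over all 20 libraries. Genes near 1 CPM or below carry the widest counting error.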
